A study of Mus musculus with 24 samples.

Results

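The CCN genes encode secreted matricellular proteins, which sit in the extracellular matrix without building it and modulate how cells respond to integrins, growth factors and Wnt, BMP, TGF-β and Notch signals. The 5 members measured here were Nov (Ccn3 in current nomenclature), Cyr61 (Ccn1), Ctgf (Ccn2), Wisp1 (Ccn4) and Wisp2 (Ccn5), out of 27962 gene and transcript names on the array, and they were taken by the gene name that the array files give to a probe. Nov was selected on its difference between the diets in the colon, and the other 4 were added because they belong to the same family. The Nov diet difference in the colon is therefore given as a description with no test, and whether it differed from that in the liver was not tested. The level of Nov in liver against colon was tested, over both diets, with the same colon values.

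Samples came from 12 female C57BL/6 mice aged 12 weeks, 6 in each of the groups HF-low-low and HF-low-suf, numbered 1 to 6 here by their replicate. All 12 were born to dams kept from before mating until the pups were weaned on the HF-low diet, which is rich in fat and poor in both selenium and folate, so both groups shared this early exposure. After weaning the HF-low-low mice stayed on that diet and the HF-low-suf mice received the HF-suf diet, as rich in fat but with enough of both nutrients. RNA of whole colon and whole liver of each mouse was labelled with Cy3 and hybridised on its own array against a common Cy5 reference, which the labels describe as RNA of colon and liver pooled from all mice, and this gave 24 arrays with 6 mice a group. Levels are log2 ratios of sample to reference, so 0 stands for the level in the reference, and a difference of 1 between groups is a doubling. In whole tissue, fewer cells of a type and less RNA per cell cannot be told apart.

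CCN3 slows the growth of several cell types and can bind Notch1, CCN1 and CCN2 are integrin ligands that drive adhesion and angiogenesis and, for CCN2, matrix deposition, and CCN4 was found as a gene induced by Wnt1. CCN5 lacks the carboxy-terminal cysteine knot that the other members carry. Cyr61 and Ctgf are textbook targets of the transcriptional coactivators YAP and TAZ, and Ctgf also of TGF-β.

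Each gene was read by 1 probe of 60 bases with 1 spot on every array, so that each value below rests on a single spot. The first 30 bases of each probe are shown 5′ to 3′ as the array files give them, because they fix which transcript stretch stands for the gene.
Nov: aatgaaagatgttccgaatgtaaacttaga
Cyr61: aagattagttgggccaagtgaaagccctgc
Ctgf: gtcaaatccctgttggtgaacaaatggcct
Wisp1: cattcctcatttttctcatgatctgtgtag
Wisp2: gtatttgtaaaaatacacatctcttaaatg
In build mm7 the files place the Nov probe on the plus strand of chromosome 15 from 54812769 to 54812828 and the Wisp1 probe on the same chromosome and strand from 67006754 to 67006813. The Ctgf probe lies on the plus strand of chromosome 10 from 24349402 to 24349461, the Wisp2 probe on the plus strand of chromosome 2 from 163573871 to 163573930, and the Cyr61 probe on the minus strand of chromosome 3 from 145544387 to 145544446. Which exon or untranslated region each probe lies in was not analysed here.

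The arrays differed in brightness. Spots had a median Cy3 signal 3.77 to 7.22 times their local background, and 26.1% to 71.9% of spots were well above background in Cy3. The reference channel was much brighter on 2 arrays than on the rest, colon HF-low-suf mouse 5 (18.2 times background) and liver HF-low-suf mouse 4 (12.7 times), where the other 22 arrays lay between 5.43 and 7.62 times. The tissue labels were borne out by cell type genes: the epithelial keratin Krt20 had a mean log2 ratio of -0.20 in colon and -6.00 in liver, and the hepatic apolipoprotein Apoa1 -4.23 in colon and 1.84 in liver. The description of the reference was not borne out in full: all 7 skeletal muscle markers, well above background on every array, had mean log2 ratios from -5.71 to -4.66 in colon and from -4.97 to -3.89 in liver, where a pool of these tissues alone would lie between them, dye bias of the probes aside. The reference is therefore used only as the common denominator of all arrays.

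Detection set what could be said of each gene. Ctgf was well above background in Cy3 on 24 of 24 arrays. Cyr61 was so in 12 of 12 colons and 10 of 12 livers. Nov and Wisp1 were measured in 12 of 12 colons, but in the liver Nov passed on 1 of 12 arrays and Wisp1 on 0. Wisp2 passed on none of the 24 arrays, so its ratios were not read as levels. In the Cy5 reference channel all 5 members were well above background on every array, which is not read as their level in colon or liver.

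**Figure D1:**
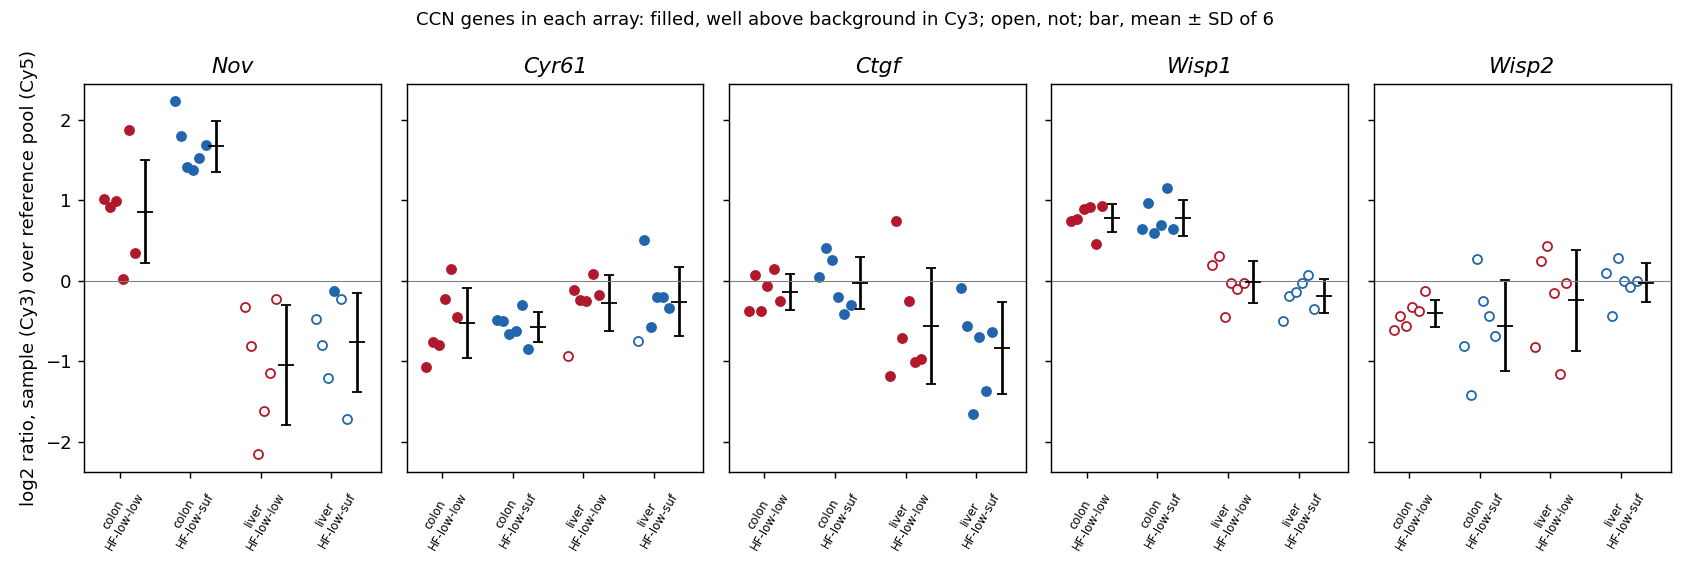
Log2 ratio of sample to reference pool (y axis) of the 5 CCN genes in each of the 24 arrays, by tissue and diet, with the mean ± SD of 6 mice beside each group and open circles where the spot was not well above background in Cy3. Nov spread from 0.03 to 1.87 in HF-low-low colons and from 1.38 to 2.23 in HF-low-suf colons, and most liver values of Nov and all of Wisp1 are open.

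In the colon, Nov was higher in the HF-low-suf group than in the HF-low-low group. This direction, taken from Cy3 as the mouse sample as both the labels and the methods state, is opposite to the sign printed for Nov by the study. In the 6 HF-low-low colons its log2 ratios were 1.02, 0.92, 0.99, 0.03, 1.87 and 0.34 for mice 1 to 6, and in the 6 HF-low-suf colons 2.23, 1.80, 1.42, 1.38, 1.53 and 1.69. The groups overlapped through a single animal: 5 of 6 HF-low-low colons lay below the lowest HF-low-suf colon, and HF-low-low mouse 5, at 1.87, lay above 5 of the 6 HF-low-suf colons. The mean was 0.86 ± 0.64 (SD, n = 6) against 1.68 ± 0.32 (SD, n = 6), a difference of 0.81 (SE 0.25), or 1.76-fold.

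The same order was seen in the unprocessed Cy3 signals of the Nov spot, which ran from 313 to 1281 (median 611) in HF-low-low and from 858 to 1809 (median 1027) in HF-low-suf colons. Its reference signals had medians of 825 and 872 in these groups. Since arrays of both diets shared each slide, mice with the same number could also be set against each other. HF-low-suf was higher on 5 of 6 slides, by up to 1.36, and lower by 0.34 on the slide of HF-low-low mouse 5 and HF-low-suf mouse 5. The difference was 0.84 among the slides scanned on the first day and 0.79 among those scanned on the second. Without HF-low-suf mouse 5, whose array had the bright reference, it was 0.84, and without HF-low-low mouse 5 it was 1.02. The lowest value over all left-out mice, 0.65, came without HF-low-low mouse 4.

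None of the other 4 CCN genes passed the test for diet in the colon. In that comparison 69 of 41174 probes, 0.168%, passed an unadjusted P below 0.01 with a fold change above 1.5 in limma, and none passed 0.05 after Benjamini-Hochberg adjustment (1228 had an unadjusted P below 0.05). Of the 4 members that this contrast did not select, 0 were among those 69.

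The log2 ratio of Ctgf in the colon ran from -0.37 to 0.14 (median -0.16) in HF-low-low and from -0.41 to 0.40 (median -0.08) in HF-low-suf, and the ranges overlapped almost wholly. The difference was 0.11 (SE 0.17, limma P = 0.517, exact permutation P = 0.50, 95% interval -0.26 to 0.48). It ran in opposite directions on the 2 scan days, 0.46 on the first and -0.24 on the second, with 3 mice a group on each.

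Cyr61 ran from -1.07 to 0.14 (median -0.60) in HF-low-low colons and from -0.85 to -0.30 (median -0.56) in HF-low-suf colons. The HF-low-low colons spread more widely and enclosed all HF-low-suf values, and the mean difference was -0.05 (SE 0.19, limma P = 0.811, exact permutation P = 0.825, 95% interval -0.46 to 0.37). Here too the scan days pointed in opposite directions, at 0.32 and -0.42.

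Wisp1 lay between 0.46 and 0.93 (median 0.83) in HF-low-low and between 0.59 and 1.15 (median 0.67) in HF-low-suf colons, again with overlapping groups. Its difference was 0.00 (SE 0.14, limma P = 0.992, exact permutation P = 0.991, 95% interval -0.31 to 0.31), the narrowest interval given for a member in the colon. A change of 1.5-fold in either direction lay outside the intervals of Ctgf, Cyr61 and Wisp1. Wisp2 was below detection in both groups and is given no fold change.

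**Figure D2:**
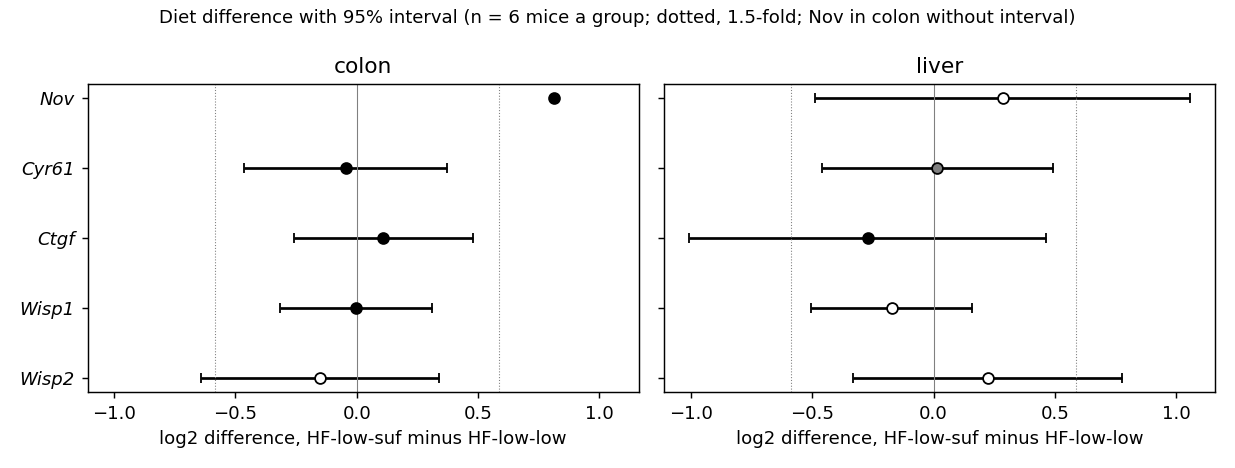
Log2 difference between the diets, HF-low-suf minus HF-low-low (x axis), with its 95% interval for each CCN gene in colon and liver (6 mice a group). Dotted lines mark 1.5-fold, black points genes well above background on all 12 arrays, grey on most of them and white on few or none. Nov in the colon, selected on this contrast, is drawn at 0.81 with no interval, and every interval drawn holds 0.

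No CCN gene passed the test for diet in the liver. In that tissue 48 of 41174 probes, 0.117%, passed the threshold, with no probe below 0.05 after adjustment and 877 at an unadjusted P below 0.05, and 0 of the 5 members were among the 48. Nov had log2 ratios from -2.15 to -0.23 (median -0.98) in HF-low-low livers and from -1.72 to -0.13 (median -0.64) in HF-low-suf livers. These ratios come from spots that were mostly not well above background, so their fitted difference is not read as a fold change. The fitted difference was 0.29 (SE 0.35, limma P = 0.424, exact permutation P = 0.478). It ran from 0.06, without HF-low-low mouse 3, to 0.48 with single mice left out, and was -0.0075 without both mice whose arrays had a bright reference.

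Ctgf varied widely between livers of the same diet. In HF-low-low livers it ran from -1.18 to 0.74 (median -0.84) and in HF-low-suf livers from -1.65 to -0.09 (median -0.67). HF-low-low mouse 2, at 0.74, was the highest of the 12 livers, and HF-low-suf mouse 3, at -1.65, the lowest. The means differed by -0.27 (SE 0.33, limma P = 0.423, exact permutation P = 0.504, 95% interval -1.005 to 0.461), and by -0.01 without HF-low-low mouse 2. The SD among HF-low-low mice was 0.72 in liver and 0.22 in colon, and among HF-low-suf mice 0.57 and 0.32.

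Cyr61 ranged from -0.94 to 0.09 (median -0.21) in HF-low-low and from -0.74 to 0.51 (median -0.27) in HF-low-suf livers. Its lowest value in each diet was the array on which it was not well above background, mouse 1 in both groups. The diets differed by 0.02 (SE 0.21, limma P = 0.941, exact permutation P = 0.948, 95% interval -0.46 to 0.49). Wisp1 was dim in all 12 livers. The test of whether a diet difference depended on the tissue called 0 of the 4 members tested for it and 0 of 41174 probes at an adjusted p below 0.05 in limma (2646 at an unadjusted P below 0.05), with member P values of 0.815 for Cyr61, 0.284 for Ctgf and 0.354 for Wisp1.

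More members were called between the tissues than between the diets, as was true of all probes, and the call rules were not the same. Colon held more Nov, Wisp1 and Ctgf than liver, while Cyr61 was not called in either direction. Over the 12 mice, 3 of 5 members were called higher in colon at an adjusted p below 0.05 and a fold change above 1.5. The same was true of 12.2% of all 41174 probes, and 11.4% were called higher in liver. Among the 13836 probes well above background in every colon, the set to which Nov, Cyr61, Ctgf and Wisp1 belong, 28.5% were called higher in colon.

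Nov was among the members that did not overlap between the tissues. Its log2 ratio in the 12 colons ran from 0.03 to 2.23 and in the 12 livers from -2.15 to -0.13, so that every colon lay above every liver, by 0.15 at the nearest. All 12 colon values lay above all 12 liver values for 7.11% of the 36748 probes with a value on each array. Within each mouse the liver was lower in 12 of 12, by between 0.57 and 3.41. The mean of the measured differences, liver minus colon, was -2.17 (SE 0.21, limma adjusted p = 1.69e-09). The exact permutation P over the signs of the mice was 0.000488, the smallest that 12 mice allow. Since 11 of 12 livers were dim for Nov, its fold has only a lower bound. Colon was at least 3.40-fold higher over all mice, and at least 2.57-fold higher in the HF-low-low mice, whose livers were all dim. With the signals processed by Feature Extraction the measured difference was -3.89.

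The liver groups of Nov cannot be ordered, since their spots were dim, and in the colon the order of the diets is the one on which Nov was selected.

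Wisp1 also kept its 12 colons, from 0.46 to 1.15, above its 12 livers, from -0.50 to 0.31. Because no liver spot was well above background the fold has only a lower bound, and colon was at least 1.53-fold higher (limma adjusted p = 4.94e-09 for the measured difference). The 12 within-mouse differences lay between -1.34 and -0.46, so that the direction was the same in each animal. Their mean was -0.88 (SE 0.09), and -1.98 with the signals processed by Feature Extraction. From the Cy3 channel alone, quantile normalized, it was -0.60, slightly short of the bound, so the bound holds for its own normalization only.

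Ctgf overlapped between the tissues but was lower in the liver of 11 of 12 mice. HF-low-low mouse 2 was the exception, with a liver value 0.67 above its colon. The mean difference was -0.61 (SE 0.17, limma adjusted p = 0.00563, exact permutation P = 0.00732), 1.53-fold in favour of colon, just past the 1.5-fold limit. Leaving out HF-low-low mouse 1, 5 or 6 or HF-low-suf mouse 3 brought the difference below that limit, to between -0.58 and -0.50, with adjusted p still below 0.05. In the HF-low-low mice alone it was -0.42 (limma adjusted p = 0.206) and in the HF-low-suf mice alone -0.80 (limma adjusted p = 0.0182). Whether it depended on diet is the interaction given above, which was not called.

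Cyr61 moved the other way in most animals. Its liver value was higher in 9 of 12 mice, and the mean difference was 0.28 (SE 0.13, limma adjusted p = 0.0941, exact permutation P = 0.0176), short of both limits of the call. For this single gene the exact test lay below 0.05, before any adjustment over probes, while the adjusted p did not. With the median of each array subtracted, and no loess, the difference was -0.063.

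**Figure D3:**
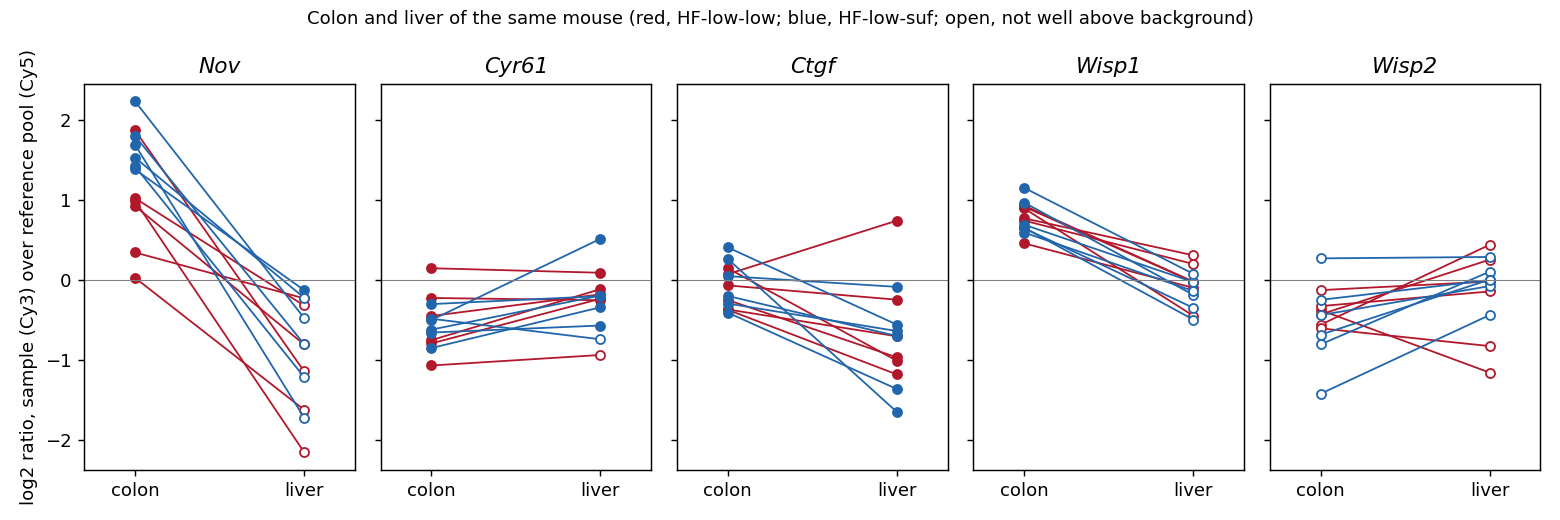
Log2 ratio to the reference pool (y axis) of each CCN gene in the colon and liver of the same mouse, joined by a line (red HF-low-low, blue HF-low-suf, open circles not well above background in Cy3). All 12 Nov and Wisp1 lines fall from colon to liver, 11 of 12 Ctgf lines fall, and 9 of 12 Cyr61 lines rise.

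The CCN genes did not follow each other from mouse to mouse at a level that passed a test. Among the 6 pairs of Nov, Cyr61, Ctgf and Wisp1 in the 12 colons and the pair of Cyr61 and Ctgf in the 12 livers, Pearson's r ran from -0.40 (Nov with Wisp1, Spearman's rho -0.41) to 0.33 (Cyr61 with Ctgf in the colon, rho 0.27). By permutation with 100000 resamples, the lowest P of the 7 relations was 0.199 for r, with an adjusted p of 0.524, and 0.185 for rho, with 0.671. Single colons moved these values. Without the 2 colons farthest from the Nov median, r was -0.24 for Nov with Wisp1 and 0.60 for Nov with Cyr61, which had 0.08 over all 12, 0.81 on the first scan day and -0.01 on the second. Cyr61 and Wisp1 went from -0.02 to 0.59 without the 2 colons farthest from the Cyr61 median. Within scan days, 6 colons each, Cyr61 and Ctgf had r of 0.78 and 0.70, and without the 2 colons farthest from the Cyr61 median their pooled r was 0.03.

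The genes whose colon pattern was most like that of Nov lay outside the family. Over the 12 colon arrays, and among 9531 named genes well above background in each, the highest Pearson r was 0.89 for 6430706D22Rik (now Hjurp, a chaperone that loads the centromeric histone CENP-A). Ccdc117 followed at 0.82, Rab27b, a small GTPase of secretory vesicle release, at 0.81, Galnt12, an enzyme that begins mucin-type O-glycosylation, at 0.80, and Wdr77, a partner of the arginine methyltransferase PRMT5, at 0.80. With the diet means subtracted these values were 0.81, 0.73, 0.76, 0.66 and 0.68, and 2 of the 5 stayed among the top 5. Rab27b fell to 0.51 without the 2 colons farthest from the Nov median. These are the top of a long list, of which 523 genes exceeded 0.5 and whose median was 0.01. Whether values of this size exceed those that 12 arrays give among unrelated genes was not tested. By Spearman's rho 2 of these 5 stayed among the top 5. Of the CCN genes, Ctgf stood at 0.33, Cyr61 at 0.08 and Wisp1 at -0.40.

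No receptor, regulator or other matricellular gene passed the diet test in either tissue. Over all probes 0.168% passed it in the colon and 0.117% in the liver, so this count is no result about the lists. The lists were 18 CCN receptors and binding partners, 25 regulators of CCN transcription and 20 other matricellular genes, all of them on the array. In the colon their median diet differences were -0.08, 0.03 and -0.10, and in the liver -0.03, 0.07 and 0.13, beside medians of -0.01 and 0.01 over all probes. Egr1, an immediate-early transcription factor, had the lowest colon value among the regulators at -0.72 (SE 0.33) and did not reach the threshold. Thbs1, a secreted activator of TGF-β, stood at 0.54, also short of it, and Notch1, a partner of CCN3, at -0.03.

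Between tissues more of the other matricellular genes were called towards the colon than towards the liver. Of the 20, of which 17 were well above background on at least 6 of the colon arrays and 12 on at least 6 of the liver arrays, 13 were called higher in colon and 2 higher in liver, with a median liver minus colon difference of -1.19, where all probes had 0.02. Over all probes 12.2% were called higher in colon and 11.4% in liver, and among those well above background in every colon 28.5% were called higher in colon. Smooth muscle and fibroblast markers moved the same way, with 8 of 9 and 7 of 7 called higher in colon. So did 7 of 7 adipose and 8 of 8 colon epithelium markers. Of 7 endothelium markers 0 were called higher in colon and 4 higher in liver. The part of these cell types was not tested. Sparcl1, an anti-adhesive relative of SPARC, differed by -5.00 (SE 0.15) and Postn, a matrix protein of fibroblasts, by -2.97 (SE 0.13). The exceptions were Spp1, which encodes osteopontin and was called higher in liver with 1 of 12 colons well above background, so that no size is given, and Smoc1, a SPARC-related modular protein, by 3.02 (SE 0.14).

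The receptors and binding partners were split. Of 18, 5 were called higher in colon and 4 in liver, with a median of 0.06. The share higher in colon lay near the 28.5% of colon-detected probes, and is no result about the receptors. The integrin subunit Itga6, a receptor for CCN1 and CCN2, had a difference of -2.83 (SE 0.16) and Bmp4, a ligand that CCN2 can bind, was called lower in liver, where 5 of 12 arrays had it well above background, so no size is given. Fn1, fibronectin, was higher in liver by 2.93 (SE 0.17) and Vegfa, an angiogenic factor that CCN2 can bind, by 1.14 (SE 0.10).

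Among the 25 regulators 8 were called higher in colon and 2 in liver, with a median of -0.39. The share higher in colon was close to the 28.5% of colon-detected probes given above, and is no result about the regulators. Srf, the partner of the MRTF coactivators, differed by -1.81 (SE 0.08) and Ctnnb1, the β-catenin through which Wnt1 acts, by -1.50 (SE 0.10). Of those called higher in liver, Ankrd1, a target of YAP, had a difference of 0.60 but was well above background in 1 of 12 colons and 0 of 12 livers, so that its fold is not read as a level. Yap1 and Wwtr1, the genes of YAP and TAZ, had differences of 0.38 and -0.68, and Wwtr1 was among those called.

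**Figure D4:**
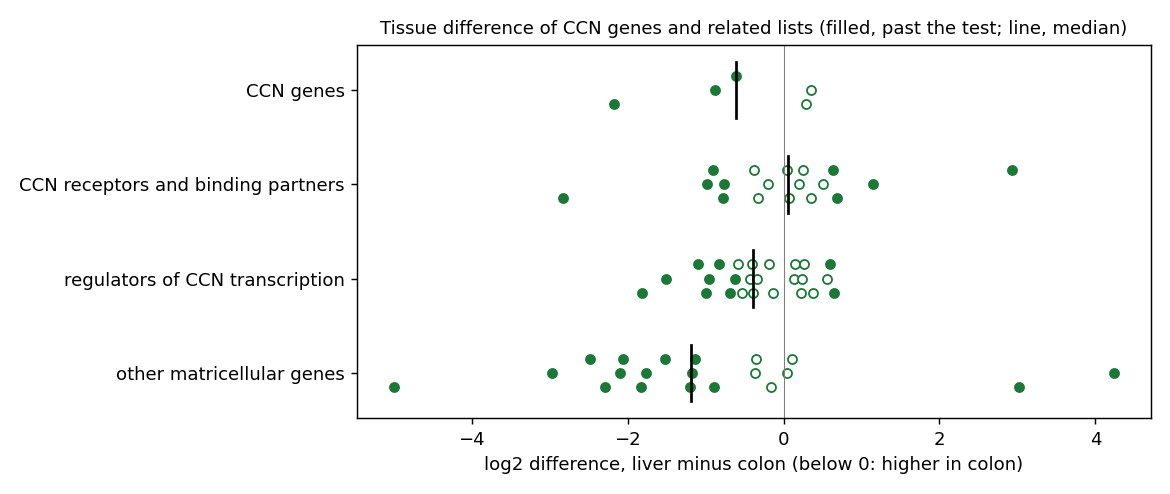
Log2 difference of liver minus colon (x axis) for the 5 CCN genes and for the genes of the receptor, regulator and matricellular lists, 1 circle a gene, filled where it passed an adjusted p below 0.05 and 1.5-fold, with a line at each median. The matricellular list has its median at -1.19, the receptor list at 0.06 and the regulator list at -0.39.

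Markers of the cell types that whole colon can hold were read beside the Nov difference. The mean log2 ratio of 9 of 9 smooth muscle markers ran from 0.21 to 0.85 in HF-low-low and from 0.18 to 0.83 in HF-low-suf colons, that of 7 of 7 fibroblast markers from -1.37 to 0.15 and from -1.18 to 0.30. For 5 of 9 enteric neuron and glia markers, those well above background in every colon, it ran from 1.90 to 2.47 and from 1.17 to 2.22. For 6 of 7 adipose markers it ran from 2.57 to 3.41 and from 1.26 to 3.12, with the lowest value in HF-low-suf mouse 5. Of the 7 adipose markers, 0 had the higher mean in colons of the HF-low-suf group (median difference -0.40), and none passed the diet test. All 7 had a higher mean in HF-low-suf livers (median 1.03), where mouse 1 stood apart. The mean of Fabp4 and Cidec, detected on 12 of 12 liver arrays, was 3.03 in that mouse. It ran from -1.62 to 0.06 in the other HF-low-suf livers and from -1.80 to -0.32 in HF-low-low livers. Cfd was detected in 6 livers, Plin and Retn in 2, Adipoq in 1 and Lep in 0. Whether all 7 stayed higher without mouse 1 was not tested. In the colon the ranges of the smooth muscle, fibroblast, enteric and adipose lists overlapped between the diets. The exact permutation P between diets was 0.656, 0.870, 0.242 and 0.177 in that order, and r with Nov over the 12 colons was 0.18, -0.24, -0.30 and -0.34. For 8 of 8 colon epithelium markers the mean ran from 0.56 to 0.99 and from 0.51 to 1.11 (exact permutation P = 0.344, r 0.16), and for 4 of 7 endothelium markers from -1.52 to -0.57 and from -1.28 to -0.79 (exact permutation P = 0.844, r -0.20). The hepatocyte list had the r farthest from 0, -0.48, with means from -3.47 to -2.76 and from -3.59 to -3.15, and the pancreas and skeletal muscle lists had -0.25 and 0.08. The mesothelium and B cell lists, with too few genes detected in every colon for a mean, had median diet differences of -0.15 over 3 genes, 0 of them higher in HF-low-suf colons, and 0.04 over 5 genes, 4 of them higher. Their part in the Nov difference was not tested.

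The same markers differed between the tissues. Of 9 smooth muscle markers 8, of 7 fibroblast markers 7 and of 9 enteric neuron and glia markers 7 were called higher in colon, with median differences of -3.04, -2.01 and -1.38 beside the Nov value of -2.17. So were 7 of 7 adipose and 8 of 8 colon epithelium markers, with medians of -3.51 and -5.01. Endothelium, mesothelium and B cell markers had 0 called higher in colon, and 4, 1 and 2 called higher in liver. Skeletal muscle, pancreas and hepatocyte markers had 0 higher in colon, and 3, 4 and 5 higher in liver. Among probes well above background in every colon 28.5% were called higher in colon. Among the livers, 11 of 12 with Nov at a dim spot, its r with the 8 marker lists that could be averaged ran from 0.00 for endothelium to 0.75 for smooth muscle and 0.83 for colon epithelium markers, with 0.56 for skeletal muscle, 0.42 for fibroblast, 0.32 for hepatocyte, 0.13 for pancreas and 0.10 for adipose markers between them. These means held 2 endothelium, 4 smooth muscle, 5 colon epithelium, 7 skeletal muscle, 4 fibroblast, 5 hepatocyte, 2 pancreas and 2 adipose genes. With Nov near background, the r values are not read as a link to a cell type. HF-low-suf mouse 1 stood apart among the livers for adipose markers, at 3.03 against -1.80 to 0.06 in the other 11, and its Nov ratio of -0.48 lay inside the liver range. The part of cell makeup in the difference between colon and liver was not tested.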

How the data were processed

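The authors deposited 1 scanner file per array. For every spot the authors deposited its mean intensity in Cy3 (mouse sample) and Cy5 (reference), with a median background measured around it, quantified with Feature Extraction 9.5.3.1 without normalization, and these were used here, with the software's processed intensity as an alternative. The submitters' processing notes name limma. Signals were corrected with normexp (offset 50), control spots and spots marked as outliers were left out, each array was loess normalized (span 0.3), and spots of a probe were averaged, which left 41174 probes. Dyes were not swapped, so a dye bias of a probe would shift all arrays alike. No depth exists for arrays: the 6 mice a group limit the precision.

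Diets were compared within each tissue with lmFit and eBayes in limma 3.58.1 on R 4.3.3, 12 arrays a fit, called as in the study's methods where P was below 0.01 before adjustment and the fold change exceeded 1.5, with Benjamini-Hochberg adjustment over all probes. Intervals are 95% on the 10 residual degrees of freedom. Tissues were compared over 24 arrays in a fit that took each mouse as a random block (statmod 1.5.0; intra-mouse correlation 0.158), called at an adjusted p below 0.05 and the same fold. For single probes a two-sided exact permutation test ran through the 924 assignments of the mice to diets, or the 4096 sign assignments. Whether a probe was well above background was read from the flag of Feature Extraction. A lower bound is the mean log2 Cy3 level of the bright group, after loess and Aquantile scaling, against the mean of the dim group with each array raised to its lowest signal well above background, and is open to dye bias.

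Replicates were separate mice. Replicate numbers are also slides, 6 in all with 4 arrays each, and colon and liver of a number and diet come from 1 mouse, as the sample descriptions say. Deviations from the group means correlated between same-numbered arrays of the 2 diets by -0.40 to 0.50 in colon and -0.16 to 0.77 in liver. Replicates of a group had log2 ratios correlated at 0.68 to 0.94 and no array was a copy of another, with at most 0.00692% of signals identical.

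The members, the 3 pathway lists and the 11 marker lists were chosen with earlier results of these data known. Genes named are the members, the 5 genes most like Nov by Pearson r, the 2 genes of each pathway list with the largest called rise and fall between tissues, and any list gene past the diet threshold, except that 1 gene is not reported here; Egr1, Thbs1, Notch1, Yap1 and Wwtr1 were added after their values were seen. Names are those of the array files, with RefSeq accessions matched to current symbols for 5 of 5 members. Proteins and promoters were not analysed here.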

Additional observations from a re-analysis of the deposited data

Results flagged for a closer look

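Cyr61 in the liver of HF-low-low mouse 1 had a log2 ratio of -0.94, far from the other 5 livers of that diet, the nearest of which stood at -0.26. The gap was 0.666 of the group's range, above Dixon's 95% limit for 6 samples. On that array the spot was not well above background in Cy3. It was the only value past the limit among 20 groups of 6, and chance gives about 1 in 20.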

How the results depend on the processing

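The Nov difference between diets in the colon, on which Nov was selected, ran from 0.65 to 1.04 over 25 alternatives of the same arrays, which is no independent support. These include the replicate block with the slide as a fixed term (0.81, SE 0.22), scan day as a block (0.81, SE 0.25) and the median of the within-slide differences (1.04). Each slide and each scan day held as many colons of one diet as of the other. A slide or day term could therefore change the SE but not the difference. Aquantile scaling and the filter on detected probes also left it at 0.81, since neither alters the Nov ratios. Leaving out mice gave 0.65 to 1.02. No other member was called for diet in either tissue under any alternative. The number called between tissues was 3, and 2 to 3 with a mouse left out. With the mouse as a fixed replicate block it was 3. Ctgf lost its call in 5 alternatives, all with fewer mice, and kept its direction in each. In 4 of them, each with 1 mouse left out, only the fold fell short, with adjusted p still below 0.05. In the HF-low-low mice alone neither limit was met. The other fits with 1 mouse left out kept the call. Of the differences called in no setting, 2 changed sign by more than their SE: Cyr61 between tissues, to -0.063 under median centring, and Wisp2 between diets in liver, to -0.0689 with the signals processed by Feature Extraction. Smaller sign changes around 0 occurred for Cyr61, Wisp1 and Wisp2 between diets in colon, for Cyr61 and Nov between diets in liver, and for Cyr61 in the difference between the tissues' diet effects. The cause was not tested. Under that last setting the median over all probes of liver minus colon was -0.19, Nov between tissues went from -2.17 to -3.89 and Wisp1 from -0.88 to -1.98, and both stayed called. Ctgf between tissues went from -0.61 to -1.03 under median centring, and Wisp1 to -0.60 from Cy3 alone. Among all probes, diet calls in colon fell from 69 to 13 with no background correction, 19 from Cy3 alone and 26 with median centring, and in liver from 48 to 12, 24 and 2, while plain background subtraction gave 79 and 55 and the signals processed by Feature Extraction 77 and 44. Median centring raised the share of tissue calls that were higher in colon from 51.7% to 70.8%. Leaving out both mice with a bright reference channel, an alternative chosen after seeing the data, gave 0.92 for Nov in colon and 3 members called between tissues. Other probes of a member could not be tried, since each had 1. Spots near background, as for Nov and Wisp1 in liver and Wisp2 throughout, limit the folds.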
